A study of Homo sapiens with 9 samples.

Results

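The synaptic vesicle release machinery was followed across LAN5 cells in which MYCN or HAND2 had been lowered with small interfering RNA (siRNA). Members were taken by gene symbol from the deposited table: the synaptotagmins (SYT), synapsins (SYN), syntaxins (STX), syntaxin-binding proteins (STXBP), vesicle-associated membrane proteins (VAMP), RAB3, complexins (CPLX), SV2, UNC13, RIMS and DOC2 families, with SNAP25, SYP, SYNPR, NSF and CADPS (CADPS2, also in the rule, is not analysed here). The rule found 69 of the 25084 genes in the table. It uses symbols and no measured value, but it was chosen with earlier results of these data known. LAN5 is an established human neuroblastoma line with amplified MYCN, and neuroblastoma derives from the sympathetic nervous system. The 9 libraries fell into 3 groups of 3. All cells were electroporated with an siRNA and RNA was collected at 72 h: a control siRNA in the siCTR group, the siRNA labelled siMYCN_2 in the siMYCN group, and the siRNA labelled siHAND2_3 in the siHAND2 group. The labels thus give 1 siRNA for each target, no untransfected cells and 1 cell line. They do not say whether the 3 libraries of a group came from separate cultures, so p-values measure the spread between these libraries, which may be technical.

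Neurons and neuroendocrine cells release transmitter when a vesicle fuses with the plasma membrane. Fusion is driven by SNARE proteins, in which VAMP on the vesicle zips together with syntaxin and SNAP25 on the target membrane. Many synaptotagmins and the DOC2 proteins sense calcium, UNC13, CADPS and complexins prepare and clamp the SNAREs, and NSF takes used SNARE complexes apart. RAB3 and RIM proteins bring vesicles to the release site, synapsins hold the reserve pool, and SV2 and synaptophysin (SYP) sit in the vesicle membrane. Sympathetic cells use the same proteins to release catecholamines from dense-core vesicles. Other syntaxins and VAMPs serve traffic between the Golgi, endosomes and the ER.

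Values were CPM, reads per gene scaled to a sum of 1000000 in each library, and CPM is not corrected for gene length, so levels are compared between groups and not between genes. The smallest step between low values put the depth at 21070000 to 32710000 assigned reads per library. Counting error, as a coefficient of variation, was then 17.5% to 21.8% at 1 CPM and 5.53% to 6.89% at 10 CPM. MYCN averaged 1842 ± 54.2 CPM for siCTR, 1289 ± 47.0 for siMYCN and 914 ± 48.4 for siHAND2 (SD, n = 3 libraries each), so the MYCN transcript was lowest in siHAND2. HAND2 averaged 501 ± 13.7, 571 ± 15.9 and 272 ± 7.65 CPM in the same order (SD, n = 3). The labelled cell type was checked with 8 sympathetic neuroblastoma markers (DBH, TH, CHGA, CHGB, STMN2, PRPH, ELAVL4 and GAP43), whose summed level was 2015 to 2154 CPM in siCTR. ELAVL4 alone averaged 975 CPM there, and TH 2.95 CPM. Of the markers of other cell types, those of Schwann cells summed to 2.06 to 3.34 CPM over all 9 libraries, endothelial markers to 0.52 to 1.19 CPM and immune markers to 0.324 to 0.724 CPM. PECAM1, CDH5 and PTPRC never passed 0.1 CPM. Astrocyte markers summed to 1.40 to 3.11 CPM, nearly all of it SLC1A3. Fibroblast and stromal markers were not near 0: they summed to 101 to 107 CPM in siCTR, where PDGFRB alone averaged 89.8 CPM.

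Of the 69 members, 56 reached 1 CPM in at least 3 of the 9 libraries and were tested, against 14495 of all 25084 genes. The tests used log2(CPM + 1) and limma, with p-values adjusted over all 14495 genes, and a member is called higher or lower where the adjusted p was under 0.05. Since 1 CPM is added before the logarithm, fold changes of low genes are understated.

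The comparison of siMYCN with siCTR asked how the release genes stood when MYCN was lowered. HAND2 was called higher in this comparison (0.19, adjusted p = 0.00183). Of the 56 tested members, 28 rose and 1 fell. This is 50.0% higher and 1.79% lower, where 24.5% of all tested genes were called higher and 11.4% lower. The median log2 fold change was 0.19 over the members and 0.06 over all tested genes. The largest rises were those of the vesicle GTPase RAB3B (1.02), the synaptotagmins SYT5 (0.90), SYT4 (0.89) and SYT9 (0.69), the priming factor CADPS (0.80) and the vesicle glycoprotein SV2C (0.66). The calcium sensor DOC2A was the only member called lower (-0.29). The balance of calls depended on scaling: 20 members were higher and 4 lower after median-ratio rescaling, and 21 higher and 5 lower after quantile normalization. Calls over all tested genes moved too, from 3556 higher and 1653 lower to 2443 and 2333 with median ratios and 2337 and 2392 with quantiles. Of the 28 rises, 19 were called in every alternative that tested them and with any 1 library left out. One of these, SYT5, was left out by the filter of 5 CPM, and it passed that of 1 CPM only through its siMYCN libraries. DOC2A was not called without siCTR replicate 2 (-0.31), siCTR replicate 3 (-0.24), siMYCN replicate 1 (-0.19) or siMYCN replicate 3 (-0.31). Sympathetic markers moved in the same libraries: their summed level was 2572 to 2663 CPM in siMYCN, above the siCTR range, with 7 of 8 called higher and CHGA not called. Of the 5 tested fibroblast and stromal markers, COL3A1 (1.11), COL1A2 (1.03), LUM (0.84) and DCN (0.68) were called higher too, and PDGFRB was not. In bulk RNA a change in the share of cells of 1 type and a change in RNA per cell cannot be told apart, and the part of the markers in the members' result was not tested.

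For HAND2 the question was the same. MYCN was also lower in siHAND2, at 49.6% of the siCTR mean against 70.0% in siMYCN. The part of lower MYCN in the members' result was not tested. Against siCTR, 10 members rose and 10 fell in siHAND2, 17.9% each, where 18.1% of all tested genes were called higher and 11.8% lower. The share that rose was thus near that of all genes. The largest falls were those of the active zone protein RIMS3 (-0.81), the syntaxin-binding protein STXBP5 (-0.74), the synapsin SYN2 (-0.69), SYT9 (-0.58), the vesicle GTPase RAB3A (-0.52) and SYT4 (-0.49). RAB3B (0.82), SYT1 (0.36), SYN1 (0.31), RIMS2 (0.31), STX3 (0.27) and STXBP3 (0.19) had the largest rises. The median log2 fold change was 0.018 over the members and 0.04 over all tested genes. With median-ratio rescaling 6 members were higher and 13 lower, and with quantile normalization 5 were higher and 13 lower. Calls over all tested genes moved too, from 2630 higher and 1709 lower to 2001 and 2250 with median ratios and 1984 and 2162 with quantiles. Of the 10 falls 9 were called in every alternative and with any 1 library left out, against 4 of the 10 rises (RAB3B, RIMS2, SYN1 and SYT1). Leaving out siCTR replicate 2 left 6 rises. Fibroblast and stromal markers had their highest summed level in this group. The summed level of 6 of them (COL1A1, COL1A2, COL3A1, DCN, LUM and PDGFRB) was 101 to 107 CPM in siCTR, 124 to 132 in siMYCN and 252 to 288.5 in siHAND2. PDGFRB made up most of it, with means of 89.8, 98.8 and 179 CPM in the same order. All 5 that were tested were called higher in siHAND2. COL1A1 stayed under the filter and did not rise, with means of 0.720, 0.507 and 0.363 CPM in siCTR, siMYCN and siHAND2. The summed sympathetic markers measured 2099 to 2205 CPM in siHAND2, where DBH, TH and PRPH were called lower and STMN2 and GAP43 higher. The part of these markers in the members' result was not tested.

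The direct comparison set siHAND2 against siMYCN, with the siCTR libraries entering only the estimate of the spread. Both targets differed between these groups, MYCN by -0.50 and HAND2 by -1.07 (log2), and the part of each was not tested. In siHAND2, 23 members (41.1%) were lower than in siMYCN and 2 (3.57%) higher, where 15.5% of all tested genes were lower and 11.4% higher. The median log2 difference was -0.16 over the members and -0.0063 over all tested genes. SYT4 (-1.38), SYT9 (-1.27), STXBP5 (-1.19), RIMS3 (-1.16), the calcium sensor DOC2B (-1.08) and SYN2 (-0.96) differed most. SYT1 (0.18) and NSF (0.17) were the members called higher. Both other scalings gave 22 members lower and 4 higher. Calls over all tested genes went from 2242 lower and 1650 higher to 2003 and 1974 with median ratios and 1922 and 2075 with quantiles. Of the 23 lower members, 20 were called in every alternative that tested them and with any 1 library left out, where the filter of 5 CPM again left out SYT5. SYT5 passed the filter of 1 CPM only through its siMYCN libraries. The count of higher members was 1 without siMYCN replicate 2, where SYT1 was not called (0.15), and 4 without siHAND2 replicate 1. Markers also moved in this comparison. Of the 8 sympathetic markers, DBH (-1.39), TH (-1.06), PRPH (-0.82), CHGB (-0.73) and ELAVL4 (-0.14) were lower in siHAND2 and STMN2 (0.24) was higher. Of the 5 tested stromal markers, DCN (2.39), COL1A2 (1.64), LUM (1.61) and PDGFRB (0.85) were higher. Their part in the members' result was not tested.

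**Figure D1:**
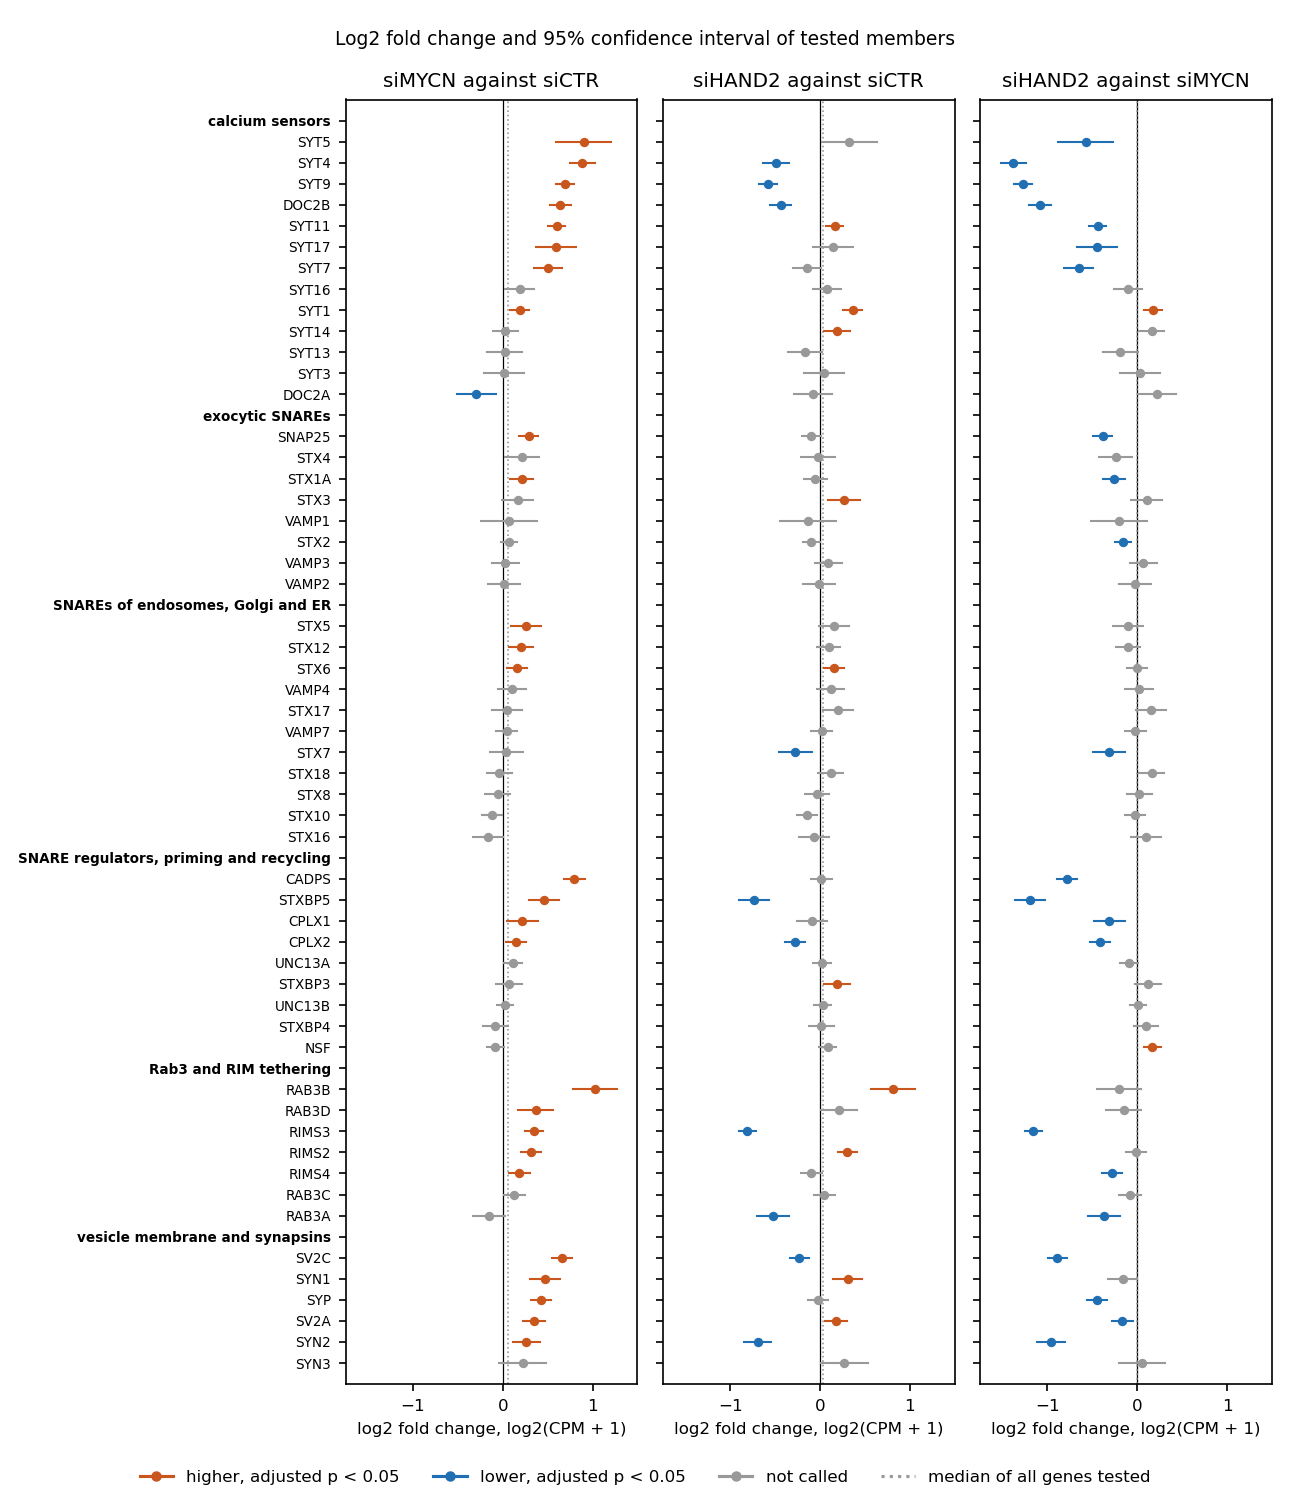
Log2 fold change on the log2(CPM + 1) scale (horizontal axis) of 54 of the 56 tested members, grouped by role, in the 3 comparisons; points are estimates, bars 95% confidence intervals, colours mark calls at an adjusted p under 0.05 and the dotted line is the median of all tested genes. The rises in siMYCN lie mostly among synaptotagmins and DOC2 genes (drawn as calcium sensors), RAB3 and RIM genes and vesicle membrane genes. The lower members of the direct comparison reach -1.38 (SYT4).

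The bases before the start sites of the 4 members that differed most in the direct comparison are shown because the targeted proteins bind DNA near genes they regulate. MYCN with MAX binds the E-box CACGTG, and HAND2 with an E protein binds E-boxes such as CATCTG, both forms of CANNTG. The lines give 250 bases up to the RefSeq start site (GRCh38.p14), 5′ to 3′ on the gene's strand, with every CANNTG in capitals. SYT4 lies at chr18:43277491-43277740 (minus strand), SYT9 at chr11:7251654-7251903 (plus strand), STXBP5 at chr6:147204167-147204416 (plus strand) and RIMS3 at chr1:40665683-40665932 (minus strand).
SYT4: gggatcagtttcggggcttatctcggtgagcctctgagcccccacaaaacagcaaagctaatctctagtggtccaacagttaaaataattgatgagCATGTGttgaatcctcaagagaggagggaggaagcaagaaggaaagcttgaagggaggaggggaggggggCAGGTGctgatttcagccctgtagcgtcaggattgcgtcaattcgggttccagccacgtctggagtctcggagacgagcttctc
SYT9: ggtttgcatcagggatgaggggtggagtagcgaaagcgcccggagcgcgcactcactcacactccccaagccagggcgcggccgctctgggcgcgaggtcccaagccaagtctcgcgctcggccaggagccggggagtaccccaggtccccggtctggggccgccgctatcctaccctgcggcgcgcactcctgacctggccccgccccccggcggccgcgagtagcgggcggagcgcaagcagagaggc
STXBP5: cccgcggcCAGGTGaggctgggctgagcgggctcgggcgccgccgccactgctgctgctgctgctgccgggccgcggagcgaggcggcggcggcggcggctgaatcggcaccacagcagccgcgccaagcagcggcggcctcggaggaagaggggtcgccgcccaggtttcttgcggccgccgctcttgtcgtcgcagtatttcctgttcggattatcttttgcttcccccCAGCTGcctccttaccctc
RIMS3: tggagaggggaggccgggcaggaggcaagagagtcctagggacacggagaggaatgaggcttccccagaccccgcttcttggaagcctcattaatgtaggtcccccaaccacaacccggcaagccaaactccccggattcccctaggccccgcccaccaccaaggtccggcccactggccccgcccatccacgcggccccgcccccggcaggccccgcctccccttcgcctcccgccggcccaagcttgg
SYT4 holds 2 CANNTG matches, starting at -154 and -84 from the start site, and STXBP5 holds 2, at -242 and -19. SYT9 and RIMS3 hold none, and none of the 4 holds CACGTG or CATCTG. The RefSeq start of SYT9 lies 13126 bp inside the gene as the deposited table draws it, so another start may also be in use. The sequence of SYT4 is 52.8% G and C, and those of SYT9, STXBP5 and RIMS3 are 73.2%, 71.6% and 69.6%.

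Promoter sequences were matched by symbol for 53 of the 69 members. Each motif was searched on both strands of the same 250 bases, so that a match to the reverse complement also counts. The motif CACGTG was found in 8 of the 53 (15.1%; CPLX3, STX18, STX2, STX4, STX6, STXBP2, SYT14 and UNC13A), against 7.73% of 27305 genes. These are all genes with a promoter sequence, whether or not they were tested here, and the difference in share was not tested. Among the 20 members called higher in siMYCN that had a sequence, STX6 alone held it (5.0%). CATCTG was found in 7 of the 53 (13.2%), against 14.6% of all genes, and in RAB3A alone of the 9 members called lower in siHAND2 that had a sequence (11.1%). Of the 9 members called higher in siHAND2 that had a sequence, SV2A and SYN1 held CATCTG (22.2%), and STX6 and SYT14 held CACGTG (22.2%). Among those called higher in siMYCN, SV2A, SYN1 and SYT5 held CATCTG (15.0%). Any CANNTG was found in 36 of the 53 members (67.9%) and in 66.7% of all genes.

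The synaptotagmins and DOC2 genes, grouped here as calcium sensors, held the 2 largest differences between the knockdowns, those of SYT4 and SYT9. The group was set by gene family, and whether each member binds calcium was not assessed. Of 13 tested, 8 rose and DOC2A fell in siMYCN, 3 rose and 3 fell in siHAND2, and in the direct comparison 7 were lower and 1 higher in siHAND2. In siMYCN 61.5% rose, in siHAND2 23.1% rose and 23.1% fell, and 53.8% were lower in the direct comparison. Over all tested genes these shares were 24.5%, 18.1%, 11.8% and 15.5%. The median log2 fold change of the 13 was 0.51 in siMYCN and 0.05 in siHAND2, and the median direct difference was -0.44.

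SYT4 (chr18:43267892-43277535) belongs with SYT11 to a pair of synaptotagmins of vesicles and the Golgi that lack a residue used for calcium binding in the first of their calcium-binding domains. It measured 36.9, 37.4 and 35.4 CPM for siCTR replicates 1, 2 and 3, 66.9, 64.2 and 74.7 CPM for siMYCN and 26.0, 23.3 and 28.0 CPM for siHAND2. The 3 groups did not overlap, with siMYCN above and siHAND2 below the control. SYT4 rose by 0.89 in siMYCN (standard error 0.07, adjusted p = 1.1e-07), fell by 0.49 in siHAND2 (adjusted p = 3.92e-05) and differed by -1.38 between the knockdowns (adjusted p = 1.48e-10).

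SYT9 (chr11:7238778-7469043), a fast calcium sensor of vesicle fusion related to SYT1, followed the same order. Its values were 70.8, 67.9 and 65.4 CPM for siCTR, 107, 110.3 and 114 CPM for siMYCN and 46.7, 43.5 and 45.5 CPM for siHAND2. Relative to the siCTR mean, the level was 162% in siMYCN and 66.5% in siHAND2. The log2 fold changes were 0.69 (standard error 0.05, adjusted p = 4.71e-08) and -0.58 (adjusted p = 1.27e-07), and the direct difference was -1.27 (adjusted p = 9.17e-12). An unnamed gene model, AC107884.1, overlaps SYT9 on the other strand at a mean of 6.04 CPM, and the use of strand in counting is not given in the sources.

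DOC2B (chr17:142789-181650), a high-affinity calcium sensor linked to spontaneous and dense-core release, had the next largest difference among the sensors. It measured 23.3, 23.7 and 21.9 CPM for siCTR, 37.3, 35.1 and 36.8 CPM for siMYCN and 16.5, 17.0 and 16.6 CPM for siHAND2, again with no overlap. The changes were 0.64 (adjusted p = 4.17e-07) and -0.44 (adjusted p = 1.85e-05), with a direct difference of -1.08 (adjusted p = 2.98e-10). Its relative DOC2A was lower and less certain. The 3 siMYCN libraries (4.65, 6.24 and 5.67 CPM) lay below the 3 siCTR libraries (6.62, 6.74 and 7.51 CPM), a change of -0.29 (adjusted p = 0.0319), and the siHAND2 libraries at 6.16, 6.30 and 7.20 CPM overlapped both groups. INO80E overlaps DOC2A on the other strand at a mean of 40.4 CPM, so part of these reads may belong to it.

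SYT11 (chr1:155859567-155885199) was higher in both knockdowns. It measured 311, 303 and 300.5 CPM for siCTR, 463, 456 and 471 CPM for siMYCN and 364, 323 and 338 CPM for siHAND2. The rise was 0.60 in siMYCN (adjusted p = 8.24e-08) and 0.16 in siHAND2 (adjusted p = 0.0106), and siHAND2 stayed below siMYCN by -0.44 (adjusted p = 1.19e-06). Without siHAND2 replicate 1 the rise in siHAND2 was 0.12 and was not called.

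SYT1 (chr12:78863993-79452008), the main sensor of fast synchronous release, was highest in siHAND2. Its values were 282, 267 and 263 CPM for siCTR, 306, 296 and 323 CPM for siMYCN and 349, 328 and 368 CPM for siHAND2, with each group above the one before it. It rose by 0.19 in siMYCN (adjusted p = 0.00665) and by 0.36 in siHAND2 (adjusted p = 2.93e-05), and was 0.18 higher in siHAND2 than in siMYCN (adjusted p = 0.0125). SYT1 is the calcium sensor called higher in the direct comparison, opposite in sign to SYT9. That call was lost with no intensity trend (0.18) and without siMYCN replicate 2 (0.15).

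SYT7, a slow sensor of asynchronous and dense-core release, averaged 14.5 ± 1.24 CPM for siCTR, 21.0 ± 1.47 for siMYCN and 13.0 ± 0.415 for siHAND2 (SD, n = 3). It rose by 0.51 in siMYCN (adjusted p = 6.72e-05), and its value of -0.15 in siHAND2 did not pass the test (adjusted p = 0.15; 95% confidence interval -0.30 to 0.01), except without siCTR replicate 3 (-0.21). SYT17 went from 4.55 ± 0.811 to 7.32 ± 0.277 CPM in siMYCN, a rise of 0.59 (adjusted p = 0.00034), and stood at 5.09 ± 0.384 CPM in siHAND2.

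SYT5, a sensor found on dense-core vesicles, lay near the detection filter. It measured 0.887, 0.674 and 0.997 CPM for siCTR, 2.46, 2.45 and 2.43 CPM for siMYCN and 1.64, 1.59 and 0.815 CPM for siHAND2. The rise in siMYCN was 0.90 on the log2(CPM + 1) scale (adjusted p = 0.000152). Without its siMYCN libraries SYT5 would not have passed the filter of 1 CPM in at least 3 libraries. The rise and the direct difference thus come from a gene kept by the filter only through the group where it was highest. Both were also called with no filter. In siHAND2 the libraries overlapped the control through replicate 3, and the value of 0.33 (adjusted p = 0.0992) became a call of 0.50 without that library.

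SYT14 rose by 0.19 in siHAND2 (adjusted p = 0.0437), where replicate 3 stood highest at 139 CPM against 112 and 118 CPM. It was not called without siHAND2 replicate 3 (0.10), siHAND2 replicate 2 (0.22), siCTR replicate 1 (0.19), siCTR replicate 2 (0.16) or siMYCN replicate 2 (0.19), nor under the other scalings (0.15 and 0.16). Its direct difference of 0.16 was called with those scalings (0.18 and 0.19) and without siHAND2 replicate 1 (0.22). SYT3, SYT13 and SYT16 were called in none of the 3 comparisons, with log2 fold changes against siCTR between -0.17 and 0.19. For SYT13 quantile normalization gave a call in siHAND2 (-0.24). SYT16 was called higher in siMYCN in the fit of these groups alone (0.19) and without siCTR replicate 3 (0.25), siMYCN replicate 1 (0.24), siHAND2 replicate 1 (0.19) or siHAND2 replicate 3 (0.19).

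**Figure D2:**
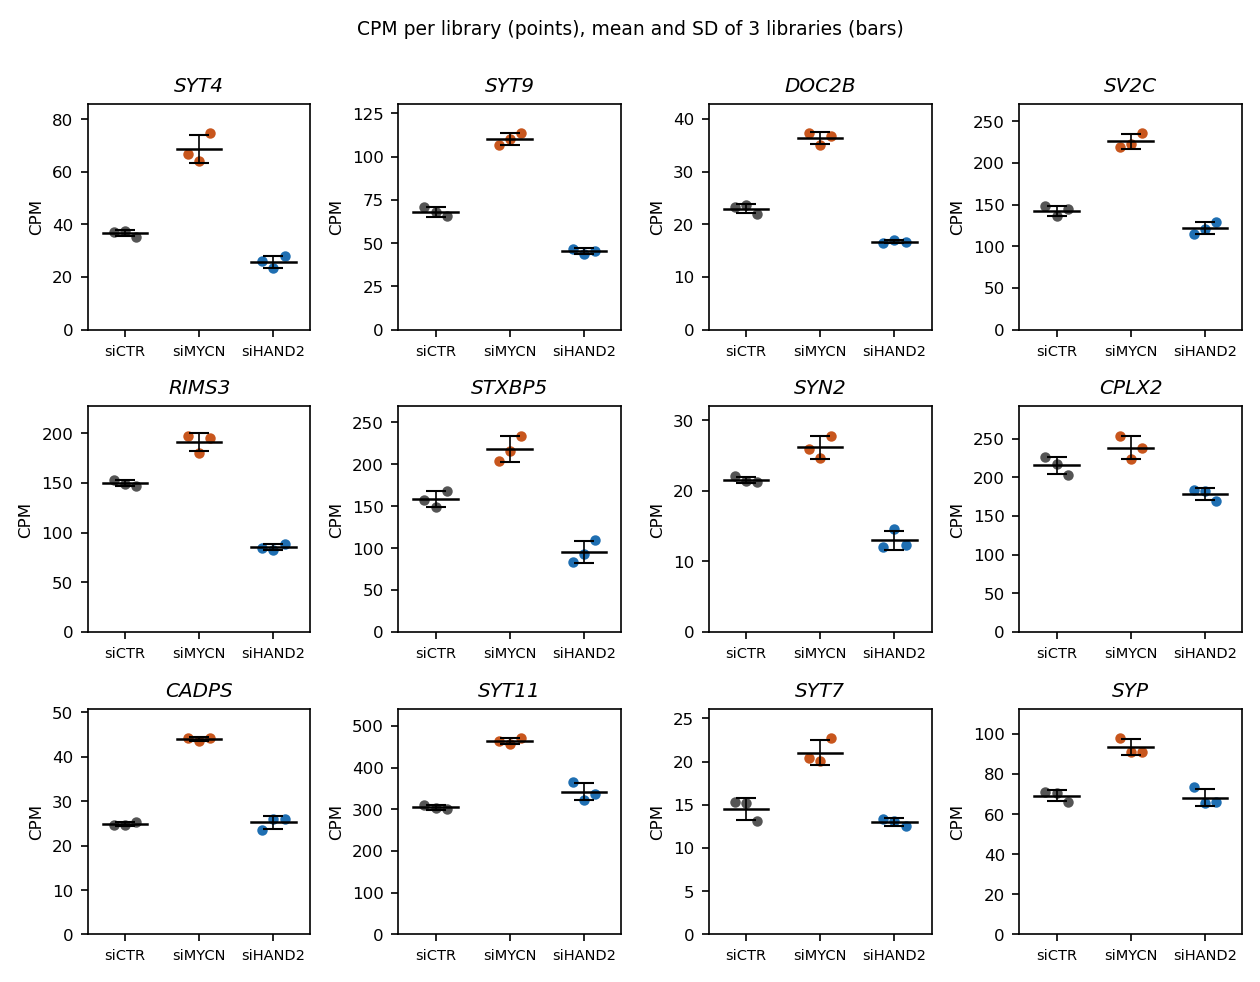
CPM (vertical axis, from 0) of 12 members in the 3 groups; points are single libraries, long bars the mean and whiskers the SD of 3 libraries. SYT4, SYT9, DOC2B, SV2C, RIMS3, STXBP5 and SYN2 lie above siCTR in siMYCN and below it in siHAND2, while CADPS, SYT11, SYT7 and SYP are highest in siMYCN.

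Among the SNAREs of the plasma membrane and its vesicles, log2 fold changes in siMYCN lay between 0.014 and 0.29. Of 9 tested, 3 rose in siMYCN and none fell, 1 rose in siHAND2, and 4 were lower in siHAND2 than in siMYCN. The shares were 33.3% higher in siMYCN, 11.1% higher in siHAND2 and 44.4% lower in the direct comparison. Over all tested genes they were 24.5%, 18.1% and 15.5%. SNAP25 (chr20:10218830-10307418), which joins syntaxin on the plasma membrane side of the fusion complex, measured 67.2, 70.2 and 67.6 CPM for siCTR, 79.4, 84.5 and 87.4 CPM for siMYCN and 61.9, 62.7 and 67.1 CPM for siHAND2. It rose by 0.29 in siMYCN (adjusted p = 0.000265) and differed by -0.38 between siHAND2 and siMYCN (adjusted p = 1.76e-05). In siHAND2 its 3 libraries lay below the 3 control libraries, a difference of -0.10 that did not pass the test (adjusted p = 0.16) but was called after median-ratio rescaling (-0.14) and without siHAND2 replicate 3 (-0.13).

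STX1A, the neuronal syntaxin that pairs with SNAP25, averaged 24.4 ± 1.31 CPM for siCTR, 28.4 ± 1.06 for siMYCN and 23.5 ± 0.839 for siHAND2 (SD, n = 3). It rose by 0.21 in siMYCN (adjusted p = 0.011), and the direct difference was -0.26 (adjusted p = 0.00348). The rise was not called without siCTR replicate 2 (0.17) or siMYCN replicate 3 (0.19), or after median-ratio rescaling (0.15). BUD23 overlaps STX1A on the other strand at a mean of 45.0 CPM.

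VAMP2 (chr17:8159149-8163546), the vesicle SNARE of synapses, measured 6.44, 7.18 and 7.07 CPM for siCTR, 6.68, 6.99 and 7.23 CPM for siMYCN and 7.20, 6.31 and 6.98 CPM for siHAND2. The 3 groups overlapped, and the log2 fold changes were 0.014 (95% confidence interval -0.16 to 0.19) and -0.012 (-0.19 to 0.16). VAMP1 and VAMP3 were likewise called in no comparison. Of the syntaxins with wider tissue distribution, STX3 rose by 0.27 in siHAND2 (adjusted p = 0.0208), a call lost without siCTR replicate 2 (0.23), siHAND2 replicate 1 (0.23) or siHAND2 replicate 3 (0.23), or with quantile normalization (0.22). STX2 was lower in siHAND2 than in siMYCN (-0.16, adjusted p = 0.00976; -0.14 and not called without siHAND2 replicate 2), and against siCTR it was called lower in siHAND2 only with the other scalings (-0.14 and -0.12). STX4 was called in none, but without siMYCN replicate 2 it was called higher in siMYCN (0.27) and lower in the direct comparison (-0.29).

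**Figure D3:**
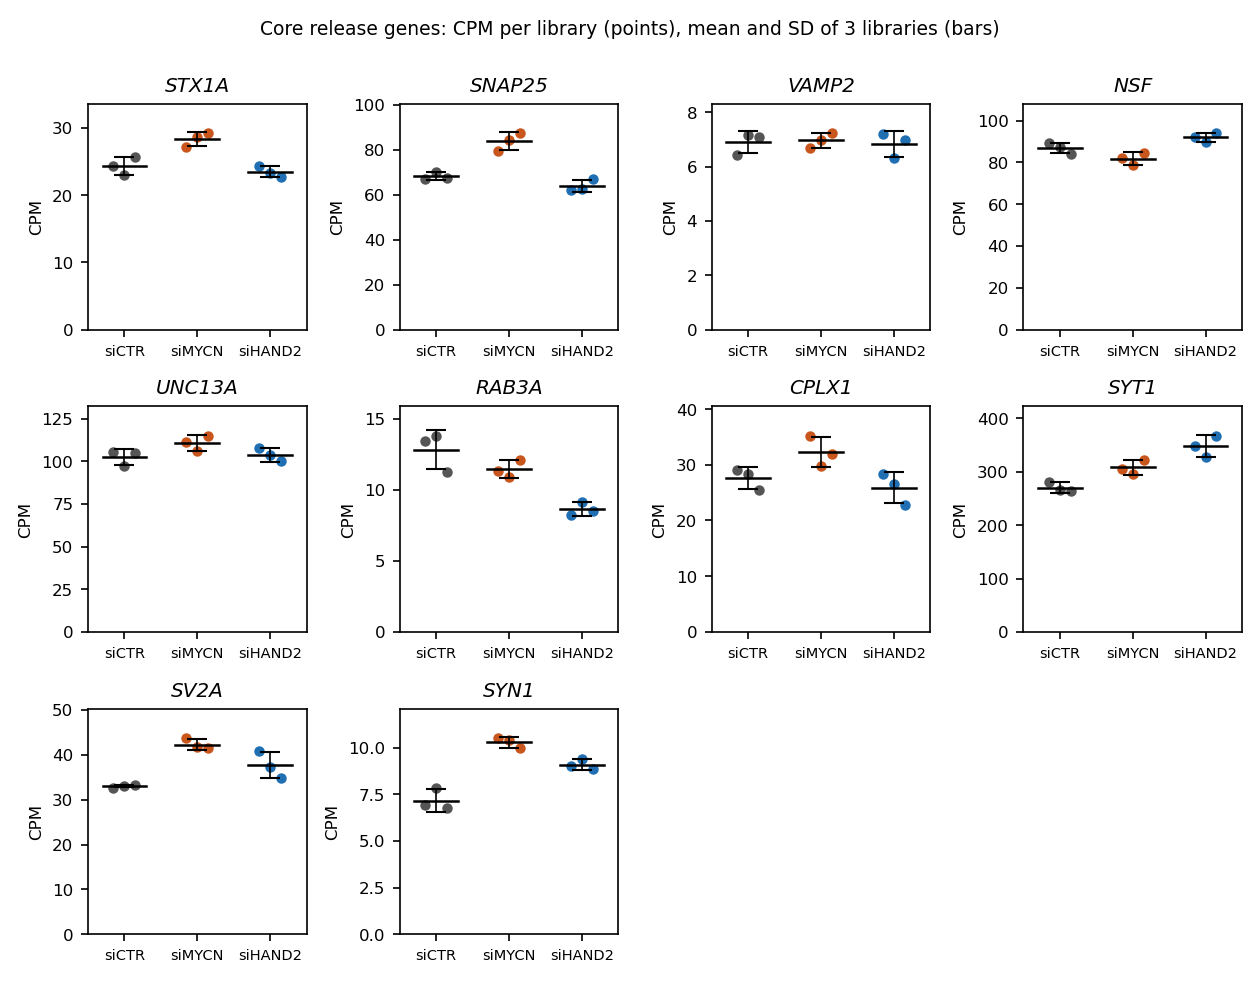
CPM (vertical axis, from 0) of 10 core release genes in the 3 groups, drawn as single libraries (points) with mean and SD of 3 libraries (bars). SNAP25 and STX1A are highest in siMYCN, VAMP2 overlaps in all groups, RAB3A is lowest in siHAND2 and SYT1 is highest in siHAND2.

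The proteins that prepare, clamp and recycle the SNAREs included both an inhibitor and activators of fusion among the genes that moved. Of 10 tested, 4 rose in siMYCN and none fell, 1 rose and 2 fell in siHAND2, and in the direct comparison 4 were lower and 1 higher in siHAND2. For all tested genes, 24.5% rose and 11.4% fell in siMYCN, and 18.1% rose and 11.8% fell in siHAND2. Between the knockdowns 15.5% of all tested genes were lower and 11.4% higher in siHAND2. Whether the counts among these 10 genes differ from such shares was not tested. CADPS (chr3:62398346-62875416), which primes dense-core vesicles, measured 24.6, 24.7 and 25.4 CPM for siCTR, 44.2, 43.6 and 44.2 CPM for siMYCN and 23.6, 26.1 and 25.9 CPM for siHAND2. The siMYCN libraries stood apart from the other 6, which overlapped. It rose by 0.80 in siMYCN (adjusted p = 4.5e-08), its value in siHAND2 was 0.016 (95% confidence interval -0.10 to 0.13), and the direct difference was -0.78 (adjusted p = 1.2e-08).

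STXBP5 (chr6:147204425-147390476), or tomosyn, competes with VAMP for syntaxin and SNAP25 and so inhibits fusion. It measured 158, 149 and 168 CPM for siCTR, 204, 216 and 234 CPM for siMYCN and 83.2, 92.5 and 109.9 CPM for siHAND2. The groups did not overlap. STXBP5 rose by 0.46 in siMYCN (standard error 0.08, adjusted p = 0.000267), fell by 0.74 in siHAND2 (adjusted p = 2.24e-06) and differed by -1.19 between them (adjusted p = 5.43e-09).

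The complexins clamp and activate the assembled SNAREs. CPLX2 measured 226, 217 and 204 CPM for siCTR, 254, 224 and 237 CPM for siMYCN and 183, 182 and 169 CPM for siHAND2, so siHAND2 lay below both other groups, which overlapped. It fell by 0.27 in siHAND2 (adjusted p = 0.000925), and the direct difference was -0.42 (adjusted p = 1.45e-05). Its rise of 0.15 in siMYCN (adjusted p = 0.0407) did not hold without siCTR replicate 2 (0.15), siCTR replicate 3 (0.11), siMYCN replicate 1 (0.10) or siMYCN replicate 3 (0.15), or under both other scalings (0.09). CPLX1 averaged 27.6 ± 1.96, 32.3 ± 2.75 and 25.9 ± 2.79 CPM in siCTR, siMYCN and siHAND2 (SD, n = 3), with a direct difference of -0.31 (adjusted p = 0.00835). Its rise of 0.22 in siMYCN (adjusted p = 0.0423) did not hold without siCTR replicate 2 (0.24), siCTR replicate 3 (0.16), siMYCN replicate 1 (0.16), siMYCN replicate 3 (0.23) or siHAND2 replicate 2 (0.22), or under both other scalings (0.16 and 0.17).

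UNC13A, the priming factor that opens syntaxin, averaged 102 ± 4.52, 111 ± 4.58 and 104 ± 4.02 CPM in the order siCTR, siMYCN, siHAND2 (SD, n = 3), with log2 fold changes of 0.11 (95% confidence interval 0.01 to 0.21, adjusted p = 0.0848) and 0.019 (-0.08 to 0.12). UNC13B averaged 95.4 ± 1.79, 97.0 ± 3.04 and 97.4 ± 2.97 CPM and was called in no comparison. NSF averaged 86.8 ± 2.52, 81.8 ± 3.04 and 92.1 ± 2.14 CPM. It was called in neither comparison with siCTR, although both other scalings called it lower in siMYCN (-0.14 and -0.15), and it was 0.17 higher in siHAND2 than in siMYCN (adjusted p = 0.00978). STXBP3 rose by 0.19 in siHAND2 (adjusted p = 0.0461), a call lost under both other scalings (0.15 each) and without siCTR replicate 1 (0.17) or 3 (0.17), siMYCN replicate 2 (0.19) or 3 (0.19), or siHAND2 replicate 1 (0.18) or 3 (0.16). STXBP4 was called in no comparison, except without siHAND2 replicate 1, where it was higher in siHAND2 than in siMYCN (0.17).

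Among the RAB3 GTPases and RIM proteins, 5 of 7 rose in siMYCN and none fell, 2 rose and 2 fell in siHAND2, and 3 were lower in siHAND2 than in siMYCN. In siMYCN 71.4% rose, in siHAND2 28.6% rose and 28.6% fell, and 42.9% were lower in the direct comparison. Over all tested genes these shares were 24.5%, 18.1%, 11.8% and 15.5%. RIMS3 (chr1:40620680-40665682), a short RIM protein of the active zone, measured 153, 149 and 147 CPM for siCTR, 198, 180.5 and 195 CPM for siMYCN and 84.2, 82.8 and 88.7 CPM for siHAND2. The siHAND2 mean was 56.9% and the siMYCN mean 128% of the siCTR mean, and no library of 1 group reached into another. It rose by 0.35 in siMYCN (adjusted p = 2.24e-05), fell by 0.81 in siHAND2 (standard error 0.05, adjusted p = 1.45e-09) and differed by -1.16 (adjusted p = 1.41e-11).

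RIMS2 (chr8:103500696-104256094), a long RIM that binds RAB3 and UNC13, measured 48.8, 48.0 and 50.0 CPM for siCTR, 58.6, 61.7 and 63.1 CPM for siMYCN and 57.0, 60.9 and 64.5 CPM for siHAND2. It rose by 0.32 in siMYCN (adjusted p = 0.000205) and by 0.31 in siHAND2 (adjusted p = 0.000312), and the knockdowns overlapped (direct difference -0.0093, 95% confidence interval -0.12 to 0.10). RIMS4 averaged 57.0 ± 1.30, 65.0 ± 3.56 and 53.4 ± 3.08 CPM in siCTR, siMYCN and siHAND2 (SD, n = 3), with a direct difference of -0.28 (adjusted p = 0.000926). Its rise of 0.18 in siMYCN (adjusted p = 0.014) was lost under both other scalings (0.13 and 0.12) and without siCTR replicate 3 (0.17), siMYCN replicate 1 (0.16) or siMYCN replicate 3 (0.17). RIMS1, the best known long RIM of synapses, stayed between 0.0001 and 0.164 CPM and was not tested.

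RAB3A and RAB3B, closely related GTPases of secretory vesicles, differed in siHAND2, where RAB3B rose and RAB3A fell. RAB3B (chr1:51907956-51990700) measured 2.11, 3.00 and 2.61 CPM for siCTR, 5.96, 5.90 and 6.82 CPM for siMYCN and 5.53, 4.42 and 5.92 CPM for siHAND2. All knockdown libraries lay above all control libraries. It rose by 1.02 in siMYCN (standard error 0.12, adjusted p = 5.42e-06) and by 0.82 in siHAND2 (adjusted p = 5.49e-05), and the knockdowns overlapped (-0.21, adjusted p = 0.206).

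RAB3A (chr19:18196784-18204042) measured 13.4, 13.8 and 11.3 CPM for siCTR, 11.3, 10.9 and 12.1 CPM for siMYCN and 8.23, 9.18 and 8.49 CPM for siHAND2. The siHAND2 libraries lay below the other 6. RAB3A fell by 0.52 in siHAND2 (adjusted p = 0.000195). Its value of -0.15 in siMYCN did not pass the test (adjusted p = 0.182), but was called with quantile normalization (-0.23) and without siCTR replicate 3 (-0.23). MPV17L2 overlaps RAB3A on the other strand at a mean of 6.88 CPM. RAB3D rose by 0.37 in siMYCN (adjusted p = 0.00632), from 14.8 ± 2.20 to 19.2 ± 1.36 CPM, and measured 17.2 ± 1.68 CPM in siHAND2, where its value of 0.21 was called without siCTR replicate 1 (0.32). TMEM205 overlaps RAB3D on the same strand at a mean of 19.4 CPM. RAB3C was called in no comparison, with log2 fold changes of 0.13 and 0.05.

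Of the 6 tested genes of the vesicle membrane and the synapsins, 5 rose in siMYCN and none fell, 2 rose and 2 fell in siHAND2, and 4 were lower in siHAND2 than in siMYCN. In siMYCN 83.3% rose, in siHAND2 33.3% rose and 33.3% fell, and 66.7% were lower in the direct comparison. Over all tested genes these shares were 24.5%, 18.1%, 11.8% and 15.5%. SV2C (chr5:76083383-76353939), a transporter-like glycoprotein of vesicles, measured 148, 136 and 144 CPM for siCTR, 219, 222 and 236 CPM for siMYCN and 114, 121 and 129 CPM for siHAND2. It rose by 0.66 in siMYCN (adjusted p = 1.1e-07), fell by 0.23 in siHAND2 (adjusted p = 0.00254) and differed by -0.89 (adjusted p = 8.31e-10), with 3 separate groups. SV2A, its relative in most neurons, measured 32.7, 33.0 and 33.3 CPM for siCTR, 43.7, 41.6 and 41.4 CPM for siMYCN and 40.8, 37.3 and 34.9 CPM for siHAND2. It rose by 0.35 in siMYCN (adjusted p = 0.00021).

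SV2A rose by 0.18 in siHAND2 as well (adjusted p = 0.0248), opposite to SV2C. That call was lost under both other scalings (0.14 and 0.16) and without siCTR replicate 1 (0.17), siCTR replicate 2 (0.18), siHAND2 replicate 1 (0.12) or siHAND2 replicate 2 (0.19). Its direct difference of -0.16 (adjusted p = 0.0434) held with siHAND2 replicate 1 left out but with no other library left out, where the values ran from -0.18 to -0.11, and not under the other scalings (-0.15 and -0.14).

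SYP (chrX:49187804-49200259), the most used marker of synaptic vesicles, measured 70.9, 70.7 and 66.1 CPM for siCTR, 97.9, 90.8 and 91.2 CPM for siMYCN and 73.3, 65.6 and 65.8 CPM for siHAND2. Only the siMYCN libraries stood apart. SYP rose by 0.42 in siMYCN (adjusted p = 1.49e-05), and its value in siHAND2 was -0.022 (95% confidence interval -0.14 to 0.09).

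The synapsins tether vesicles to actin in the reserve pool. SYN2 (chr3:12004388-12192032) measured 22.1, 21.3 and 21.3 CPM for siCTR, 26.0, 24.6 and 27.8 CPM for siMYCN and 12.1, 14.5 and 12.4 CPM for siHAND2, with no overlap between groups. It fell by 0.69 in siHAND2 (adjusted p = 1.89e-06), to 60.2% of the siCTR mean, and differed by -0.96 between the knockdowns (adjusted p = 3.47e-08). Its rise of 0.26 in siMYCN (adjusted p = 0.0096) did not hold without siMYCN replicate 3 (0.22).

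SYN1 measured 6.90, 7.85 and 6.75 CPM for siCTR, 10.5, 10.4 and 9.95 CPM for siMYCN and 9.04, 9.39 and 8.83 CPM for siHAND2, all knockdown libraries above all control libraries. It rose by 0.47 in siMYCN (adjusted p = 0.000208) and by 0.31 in siHAND2 (adjusted p = 0.00674). ARAF (mean 19.8 CPM) and TIMP1 (mean 9.42 CPM) overlap SYN1 on the other strand. SYN3 was not called in the comparisons with siCTR (0.22 and 0.27), except in siHAND2 without siHAND2 replicate 1 (0.38), and TIMP3, at a mean of 163 CPM, overlaps it on the other strand.

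Of 11 tested SNAREs of endosomes, the Golgi and the ER, 3 rose in siMYCN (STX5, STX6 and STX12), 1 rose (STX6) and 1 fell (STX7) in siHAND2, and STX7 was lower in siHAND2 than in siMYCN. The shares that rose were 27.3% in siMYCN and 9.09% in siHAND2, against 24.5% and 18.1% of all tested genes. In siHAND2 9.09% fell, and 9.09% were lower in the direct comparison, against 11.8% and 15.5%. Their median log2 fold change was 0.04 in siMYCN and 0.10 in siHAND2, and the median direct difference was -0.0011. Both other scalings removed the rises of STX5 (0.21 and 0.18), STX6 (0.10 in siMYCN; 0.12 in siHAND2) and STX12 (0.15 and 0.14), and leaving out at least 1 library removed each of these calls. For STX5 these libraries were siCTR replicate 2 (0.25), siMYCN replicate 1 (0.20) and siMYCN replicate 2 (0.24). For STX12 they were siCTR replicates 1 (0.17) and 3 (0.18) and siMYCN replicate 3 (0.20). STX6 in siMYCN was lost without siCTR replicate 1 (0.15) or 2 (0.14) or siMYCN replicate 1 (0.15) or 3 (0.13), and in siHAND2 without siCTR replicate 1 (0.15) or 2 (0.13) or siHAND2 replicate 1 (0.15) or 3 (0.14).

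STX7, a syntaxin of late endosomes, measured 18.1, 18.8 and 17.9 CPM for siCTR, 16.0, 20.4 and 20.4 CPM for siMYCN and 14.6, 14.1 and 16.3 CPM for siHAND2. It fell by 0.27 in siHAND2 (adjusted p = 0.0237), a call lost without siCTR replicate 1 (-0.28) or 2 (-0.25) or siHAND2 replicate 1 (-0.26) or 2 (-0.23). The direct difference of -0.31 (adjusted p = 0.0117) was lost without siMYCN replicate 2 (-0.26), siMYCN replicate 3 (-0.26) or siHAND2 replicate 2 (-0.27). STX8, STX10, STX16, STX17, STX18, VAMP4 and VAMP7 were called in none of the 3 comparisons. The other scalings called STX10 lower in siMYCN (-0.17 each) and in siHAND2 (-0.18 and -0.17), STX16 lower in siMYCN (-0.22 and -0.24) and STX18 higher in siHAND2 than in siMYCN (0.18 and 0.20). STX10 was also called lower in siHAND2 without siHAND2 replicate 1 (-0.17), and STX17 higher in siHAND2 without siMYCN replicate 1 (0.20), siMYCN replicate 3 (0.20) or siHAND2 replicate 1 (0.25). With the SNAREs of internal membranes left aside, 25 of 45 members rose and 1 fell in siMYCN, 9 rose and 9 fell in siHAND2, and 22 were lower and 2 higher in siHAND2 than in siMYCN.

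The 13 members under the filter were CPLX3, RIMS1, STX19, STXBP2, STXBP6, SYNPR, SYT2, SYT12, SYT15, UNC13C, UNC13D, VAMP5 and VAMP8. SYT12 reached the highest value of these, 1.05 CPM in siHAND2 replicate 1. SYT2, the fast sensor of some fast-firing neurons, stayed between 0.351 and 0.729 CPM, and SYNPR, a relative of synaptophysin, between 0.0798 and 0.307 CPM. VAMP8 was at the table's floor of 0.0001 CPM in all 3 siCTR libraries. No fold is given for these genes.

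**Figure D4:**
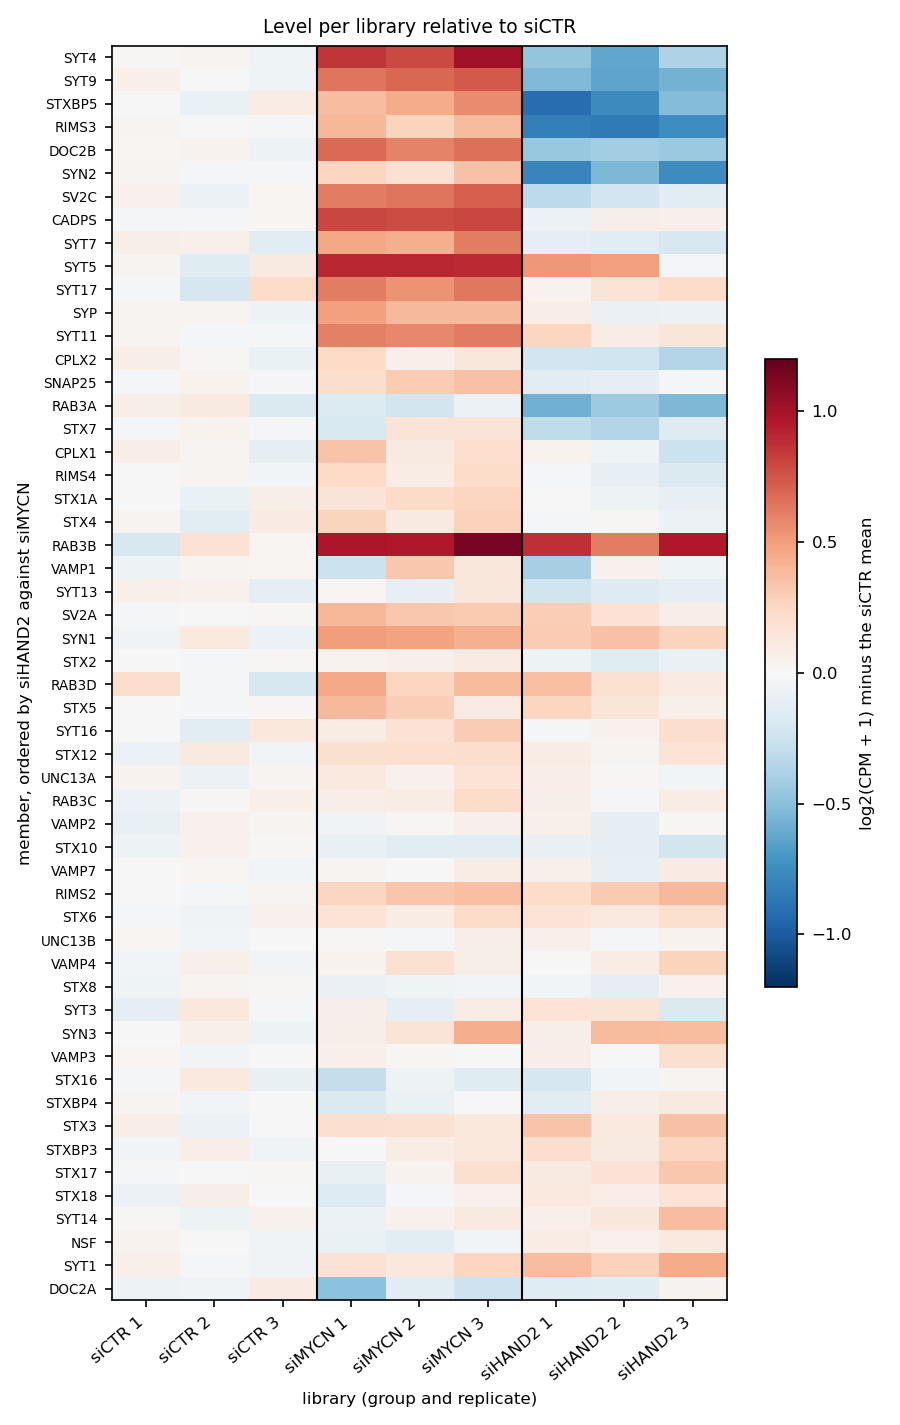
Colour shows log2(CPM + 1) of each library (columns) minus the siCTR mean for 54 of the 56 tested members (rows), ordered from the lowest direct difference of siHAND2 against siMYCN (SYT4, -1.38) to the highest (DOC2A, 0.22). The upper rows are red in all 3 siMYCN libraries and mostly blue in siHAND2, RAB3B is red in all 6 knockdown libraries, and the lower rows stay pale.

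Other genes of the release and recycling pathway were read from 5 lists that leave out the members. These lists were also chosen with earlier results of these data known, so they give no independent support for the members' result. Of 78 tested, 42 (53.8%) rose and 3 fell in siMYCN, 16 (20.5%) rose and 14 (17.9%) fell in siHAND2, and 31 (39.7%) were lower and 6 higher in siHAND2 than in siMYCN. In siMYCN 32 were higher and 5 lower after median-ratio rescaling, and 29 higher and 6 lower after quantile normalization. Leaving out siCTR replicate 2 left 9 falls in siHAND2, and leaving out siMYCN replicate 1, siMYCN replicate 2 or siHAND2 replicate 3 left 3 genes higher in the direct comparison. Over all tested genes, 24.5% rose and 11.4% fell in siMYCN, and 18.1% rose and 11.8% fell in siHAND2. In the direct comparison 15.5% of all tested genes were lower and 11.4% higher. These shares stand beside each list below as well. The median log2 fold change of the 78 genes was 0.18 in siMYCN and 0.03 in siHAND2, and their median direct difference was -0.13.

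Of 17 tested active zone scaffold genes, 10 rose and 1 fell in siMYCN and 5 rose and 3 fell in siHAND2. APBA1, an adaptor of the presynaptic terminal, went from 6.80 ± 0.261 CPM in siCTR to 14.1 ± 1.57 in siMYCN and 17.4 ± 0.995 in siHAND2 (SD, n = 3), rises of 0.95 and 1.23 (adjusted p = 3.78e-07 and 1.06e-08). NRXN3 rose by 0.69 in siMYCN and fell by 0.58 in siHAND2 at group means of 0.772 to 3.26 CPM, with a direct difference of -1.27 (adjusted p = 2.87e-06). PPFIA4, a liprin, fell in both (-0.38 and -0.47), the first not called without siCTR replicate 2 (-0.30).

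Of 23 tested endocytosis genes, 14 rose and 1 fell in siMYCN and 5 rose and 3 fell in siHAND2. DNM3, a dynamin, rose by 0.73 and 0.57, and the scaffold ITSN2 rose by 0.40 in siMYCN with a value of 0.03 in siHAND2. SH3GL3, an endophilin, fell in both (-0.45 and -0.37), and BIN1 rose by 0.22 in siMYCN and fell by 0.29 in siHAND2.

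Of 27 other release and vesicle genes tested, 13 rose and 1 fell in siMYCN, and 3 rose and 6 fell in siHAND2. The synaptogyrin SYNGR3 rose by 0.74 in siMYCN (adjusted p = 1.41e-06) with a value of 0.09 in siHAND2, and SYTL4, a RAB27 effector of dense-core vesicles, rose by 0.66 and 0.55. SYNGR2 fell by 0.41 and RAB3IP, an exchange factor named for RAB3 binding, by 0.39 in siHAND2. Of the 9 exocyst subunits, which tether vesicles at the plasma membrane, 3 rose in siMYCN, and 3 rose and 1 fell in siHAND2. EXOC7 rose by 0.33 and EXOC6B by 0.31 in siMYCN, and EXOC4 fell by 0.16 in siHAND2.

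Of 7 transporters that fill vesicles, 2 were tested, and SLC18A1 had the largest direct difference of the 78 genes. It encodes a vesicular monoamine transporter and averaged 1.36 ± 0.148 CPM for siCTR, 4.62 ± 0.781 for siMYCN and 0.403 ± 0.121 for siHAND2 (SD, n = 3). It rose by 1.24 in siMYCN (adjusted p = 2.26e-06), fell by 0.75 in siHAND2 (adjusted p = 0.000325) and differed by -2.00 (adjusted p = 4.67e-09). SLC18A3, the acetylcholine transporter, rose by 0.56 in siMYCN (adjusted p = 0.00156) and had a value of -0.09 in siHAND2, with a direct difference of -0.65 (adjusted p = 0.000538).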

How the data were processed

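RNA sequencing of 9 LAN5 libraries was deposited by the authors as 1 table of CPM values, reads scaled to a sum of 1000000 per library, with a constant of 0.0001 in every value. STAR 2.5.1, Partek and the builds hg19 and GRCh37 are named, with no role, per the submitters' processing notes. The counting tool, its use of strand, the annotation and filters are not given in the sources used here. Gene starts in the table matched GRCh38.p14 (45.1% identical, 91.4% within 5000 bp of 18215 RefSeq symbols) and not GRCh37 (0.807% identical), so positions are given as GRCh38, with the end set 1 base before the table's stop. Columns were matched to samples by name.

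Depth was taken from the smallest step between low CPM values. Whole multiples of that step, to within 0.02 of a step and up to 20 steps, made up 79.3% to 80.8% of values, too few for a count test. Genes that reached 1 CPM in 3 or more of the 9 libraries were tested on log2(CPM + 1) with limma 3.58.1 in R 4.3.3 (1 mean per group over all 9 libraries, intensity trend, 10.1 prior degrees of freedom), two-sided, with Benjamini-Hochberg adjustment over all 14495 genes in each of 3 comparisons. The model was tested on simulated data. Members, roles, pathway and marker lists were chosen with earlier results of these data known. Full values are given for 13 core genes and, in each comparison, the 6 largest rises and 6 largest falls among called members with a mean of at least 1 CPM. Other members are given by role. In each pathway list the 2 genes of smallest p in each direction against siCTR are named. Some genes these rules name are not reported here, though they stay in every count. Alternatives were pseudocounts of 0.1 and 5 CPM, a filter of 5 CPM or none, rescaling by median ratios, quantile normalization, fitting the 2 groups alone, no intensity trend, the replicate number as a block, and each library left out in turn.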

Additional observations from a re-analysis of the deposited data

How the results depend on the processing

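Of the 6 counts of called members, the 28 rises in siMYCN, the 10 falls in siHAND2 and the 23 lower members of the direct comparison stayed within 1.5 times under every alternative. The single fall in siMYCN became 0 with no filter, 4 with median ratios and 5 with quantile normalization, and 0 to 1 with a library left out. The 10 rises in siHAND2 became 6 with median ratios and 5 with quantile normalization, and 6 to 11 with a library left out. The 2 higher members of the direct comparison became 4 with either scaling and 1 with no intensity trend, and 1 to 4 with a library left out. Of the counts over the 78 other pathway genes, the 3 falls in siMYCN became 5 with median ratios and 6 with quantile normalization. With a library left out, the 14 falls in siHAND2 became 9 to 14 and the 6 higher genes of the direct comparison 3 to 7. These scalings moved the median of all tested genes in siMYCN from 0.06 to 0.0085 and 0.0005, and the cause was not tested. The next counts cover only the genes picked by the naming rules above: core genes, largest changes and the pathway genes of smallest p. Members given only by role are not in these counts, and several of them also lost or gained calls. Over the picked genes, 1560 alternative values kept a call and 70 lost one, all in the same direction, and 11 gained one. The direction was fixed in part of these settings, because they leave the fold change as it was. They are the 2 settings of the filter, the 2 groups alone, no intensity trend, the replicate block and leaving out a library of the group not compared. Signs changed for 28 values of the picked genes, none of a gene called in that comparison. With median ratios and quantile normalization these were CADPS (-0.0227 and -0.0153), UNC13A (-0.0215 and -0.0022) and ITSN2 (-0.0094 and -0.0113) in siHAND2, VAMP2 in siMYCN (-0.0368 and -0.0698) and RIMS2 in the direct comparison (0.0076 and 0.0277), and with quantile normalization STXBP3 in siMYCN (-0.0061). With a library left out, siHAND2 values ran from -0.0082 to 0.0618 for CADPS, -0.0745 to 0.0049 for SYP, -0.0180 to 0.0458 for UNC13A, -0.1700 to 0.0606 for SLC18A3 and -0.0552 to 0.0365 for VAMP2. The direct differences ran from -0.0519 to 0.0351 for RIMS2 and -0.0607 to 0.0226 for VAMP2, and in siMYCN VAMP2 ran from -0.0289 to 0.0399 and SYNGR2 from -0.0801 to 0.0570.

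Libraries with the same replicate number correlated at -0.04 to 0.31 in their deviations from group means (6 of 9 pairs over 0.1), other pairs at -0.30 to 0.14, and 7 of 9 libraries correlated best with their own number. The labels tie no number to a shared culture or day, and 3 of the 9 same-number pairs were at or under 0.1, so the number was used as a block only as an alternative, although most libraries deviated with their number. With the replicate block, genes called rose from 5209 to 5895 in siMYCN, 4339 to 5089 in siHAND2 and 3892 to 4689 in the direct comparison, and 32 members were higher and 1 lower in siMYCN, 12 higher and 11 lower in siHAND2, and 3 higher and 24 lower in the direct comparison. Depth limits the genes near 1 CPM most.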
